A study of Mus musculus with 35 samples.

Results

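The spliceosome and SR protein genes made up 63 of the 24479 genes counted in these embryos. They were chosen by their symbols in the gene table, as the rows that begin with Snrp, Sf3a, Sf3b, Srsf, Prpf or U2af, the Lsm genes 1 to 8 and the Ppil genes 1 to 4, with Ddx5, Safb, Cwf19l2 and Ccdc174 added by name. A count of at least 100 over all 35 samples was also required, and this removed 1 of 64 matching rows, Srsf12, with a summed count of 46. The lowest kept were Snrpn, with 448 counts, and Snrpb, with 546. By role, there were 12 Sm and other snRNP proteins, 9 subunits of SF3a and SF3b, 10 SR proteins, 13 PRPF factors, 3 U2AF subunits, 8 LSM proteins and 4 PPIL cyclophilins, beside the 4 genes added by name. The group was put together with results of these samples known, and which measured values led to it, beyond the count limit, is not recorded. The rule singles out the 2C libraries U81 to U88, so the members' values after Kdm5b injection in 2C embryos are given as a description and support nothing by themselves. The Kdm5b row, which holds the injected mRNA, had been removed.

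The spliceosome cuts introns out of pre-mRNA. Its small nuclear ribonucleoproteins (snRNPs) each hold a small nuclear RNA (snRNA) with a ring of Sm or LSM proteins, U2AF and the SF3 complexes of the U2 snRNP mark the end of the intron and its branch point, and PRPF proteins build and rearrange the U4/U6.U5 tri-snRNP that forms the catalytic core. SR proteins bind exons and recruit these parts. The mouse zygote carries mRNA for them from the oocyte, and this maternal store is replaced by transcripts of the embryo during the 2-cell (2C) stage.

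Total RNA was sequenced from wild-type C57BL/6NRj embryos that had been injected in the cytoplasm with water or with Kdm5b-yfp mRNA at about 1150 ng/µl, which encodes the histone H3K4me3 demethylase KDM5B fused to YFP, and that were collected about 5 to 6 h later. There were 10 water-injected control zygotes and 10 Kdm5b zygotes, each a single embryo taken 17 h after ovulation, and 9 control and 6 Kdm5b 2C samples taken 5.5 to 8 h after division. Among the 2C samples, 6 control and 5 Kdm5b samples were single embryos and the others held blastomeres pooled from 2 or 3 embryos. Cryopreserved zygotes were thawed to grow the 2C embryos, and library preparation was on a different day for each stage, so stage cannot be told apart from cryopreservation or library day, and with no other mRNA injected in this experiment, the effect of KDM5B cannot be told apart from that of injected mRNA.

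Between 8705584 and 17797581 fragments per sample fell on genes, and the Kdm5b row took between 2.30% and 15.8% of them in the injected samples and no more than 0.0189% in the controls. Levels are given below as TPM, the count per exon length scaled to one total per sample, which can be compared between genes. Markers were compared between control zygotes and control 2C samples, at an adjusted p under 0.05 alone and also with an absolute log2 fold change over 1. Of 13 listed 2-cell markers, 9 were tested, and all 9 were higher in 2C samples at both thresholds. Markers near 0 in zygotes, such as Gm5662 with at most 5 counts in control zygotes, could pass the count filter only through 2C samples. The rise of such markers is therefore no independent check of the labels. Of the 13 oocyte and zygote markers, 9 fell and 1 rose at the adjusted p, and 6 fell and 0 rose at both thresholds. Values are relative to the total RNA counted, with no spike-in. Markers of cumulus cells, the somatic cells around the oocyte, summed to 2.11 to 12.1 TPM in zygotes and 3.21 to 41.2 TPM in 2C samples. Ereg had 0 counts in every sample, but each other listed cumulus marker had counts in at least 1 sample. The highest counts in a control 2C sample were 120 for Gja1 and 77 for Has2. Libraries carry index numbers, and 8 consecutive numbers were taken here as a strip. All zygote strips held both injections evenly, but the strip U81 to U88 held 3 control and 5 Kdm5b 2C samples and the strip U89 to U96 held 6 and 1. Among control 2C samples, replicates 2 and 3, both of U81 to U88, correlated least with their group, with a median r across genes of 0.911 and 0.921, against 0.933 to 0.952 for the other 7.

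In control zygotes, transcripts of the 63 genes spanned from a median of 1.48 TPM for Snrpn to 425 TPM for Snrpd1, which encodes a protein of the Sm ring. The median gene stood at 79.2 TPM, 30 genes exceeded 100 TPM and 8 stayed under 10 TPM. After Snrpd1, the highest levels belonged to Snrpd3, another Sm protein, at 399.9 TPM, Prpf6, a tri-snRNP scaffold, at 389 TPM, Snrpf at 387 TPM and Sf3b2 at 328 TPM. Snrpb and Snrpn encode nearly the same protein, the B or N subunit of the Sm ring, and both were scarce, at 2.53 and 1.48 TPM. Fragments that map to several places were not counted, and 1970 exon bases of Snrpn lie in Snurf on the same strand, so the levels of Snrpb and Snrpn are uncertain. In control 2C samples, the median gene stood at 45.3 TPM, 19 genes exceeded 100 TPM, and the highest was Snrpf at 599.6 TPM. The median gene stood at 66.6 TPM in Kdm5b zygotes and 38.9 TPM in Kdm5b 2C samples. Prpf6 went from rank 3 to rank 26 among the 63, and Sf3a3 from rank 10 to rank 33.

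Whether the transcripts for the splicing machinery differ between the stages was addressed in the water-injected controls. Of the 63 genes, 24 were lower and 13 higher in 2C samples than in zygotes (edgeR quasi-likelihood test, Benjamini-Hochberg adjusted p under 0.05). The 24 lower genes were 38.1% of the group, against 25.4% of the 11968 genes tested that were lower, and the 13 higher genes were 20.6%, against 26.8%. Of the 59 genes matched by symbol, 22 were lower and 13 higher, or 37.3% and 22.0%. This comparison holds the control 2C samples of U81 to U88, libraries that the rule singles out, so its counts are a description too. With a log2 fold change beyond 1 as well, 17 were lower and 3 higher, or 27.0% and 4.76% of the group, against 13% and 9.2% of all genes tested. The median log2 fold change was -0.17 over the group and 0.022 over all genes. Of all gene counts, the 63 genes together took 0.588% to 0.663% in the zygotes of this comparison and 0.342% to 0.534% in its 2C samples, so the stages did not overlap in this share. In Kdm5b embryos the shares were 0.564% to 0.631% and 0.277% to 0.371%. In TPM, all 9 control 2C samples lay below all 10 control zygotes for 15 genes, 23.8% of the group against 11.9% of all genes tested, and above them for 1 gene, 1.59% against 5.9%. All 63 genes passed the filter on low counts. With the control 2C samples of U81 to U88 alone, 19 genes were lower and 12 higher, 9 and 2 of them with the fold threshold, against 20.3% lower and 17.1% higher of all genes in that fit, and 11.6% and 5.83% with the fold threshold. With those of U89 to U96 alone 29 were lower and 14 higher, against 28.3% and 27.8% of all genes.

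The lowest log2 fold change of the 63 belonged to a gene of the U2 snRNP. Sf3a3, on chromosome 4 from 124714861 to 124732423 (GRCm38), encodes a subunit of SF3a, which helps the U2 snRNP bind the branch point. It had 244 to 305 TPM (median 273) in the 10 control zygotes and 31.4 to 76.4 TPM (median 45.1) in the 9 control 2C samples. The stages were far apart, with the highest 2C sample below the lowest zygote, and the means differed 5.63-fold. The log2 fold change of Sf3a3 was -2.41 ± 0.14 (SE; adjusted p = 2.12e-12). Both other SF3a subunits were lower too, Sf3a1 at -1.32 and Sf3a2 at -1.29 on the log2 scale. Of the 6 SF3b genes, which clamp the branch point adenosine, 4 were lower, from -1.17 for Sf3b4 to -0.41 for Sf3b3. Sf3b2, the most abundant of them, had 295 to 409 TPM (median 328) in control zygotes and 90.7 to 325 TPM (median 132) in control 2C samples, with overlap between the stages and a log2 fold change of -0.96 ± 0.20 (adjusted p = 0.000181). Sf3b5, a small SF3b subunit, was higher in 2C samples, by 0.79 ± 0.26 (adjusted p = 0.0127; 0.54 and adjusted p = 0.19 with the 2C samples of U81 to U88 alone), and Sf3b6 was not called. Snrpa1 encodes the U2-specific protein A'. It had 112 to 230.1 TPM (median 163) in control zygotes and 19.1 to 97.0 TPM (median 26.8) in control 2C samples, without overlap, and its log2 fold change was -1.98 ± 0.25 (adjusted p = 2.78e-07).

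Among the PRPF factors, 5 of 13 were lower and 1 was higher. Prpf3, which binds U4/U6, had 90.7 to 165 TPM (median 124) in control zygotes and 13.4 to 36.9 TPM (median 25.0) in control 2C samples, and Prpf6, on chromosome 2 from 181601319 to 181655661, which joins U4/U6 to U5, had 353 to 419 TPM (median 389) and 39.2 to 190.1 TPM (median 61.2). For both genes, every 2C sample lay below every zygote. Their log2 fold changes were -2.23 ± 0.15 (adjusted p = 1.9e-11) and -1.98 ± 0.24 (adjusted p = 1.73e-07). Prpf38a, needed for activation of the spliceosome, had a log2 fold change of -1.32 ± 0.11 (adjusted p = 6.9e-10) and went from a median of 289.9 to 114 TPM. The other lower genes were the tri-snRNP genes Prpf31, with a log2 fold change of -1.42, and Prpf8, with -0.42, while Prpf4, a partner of Prpf3, was not called at 0.17. Prpf19, the ubiquitin ligase of its own Prp19 complex, was the higher one, at 0.37 ± 0.15 (adjusted p = 0.0385), a call kept in 10 of the 19 fits that left out 1 sample.

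**Figure D1:**
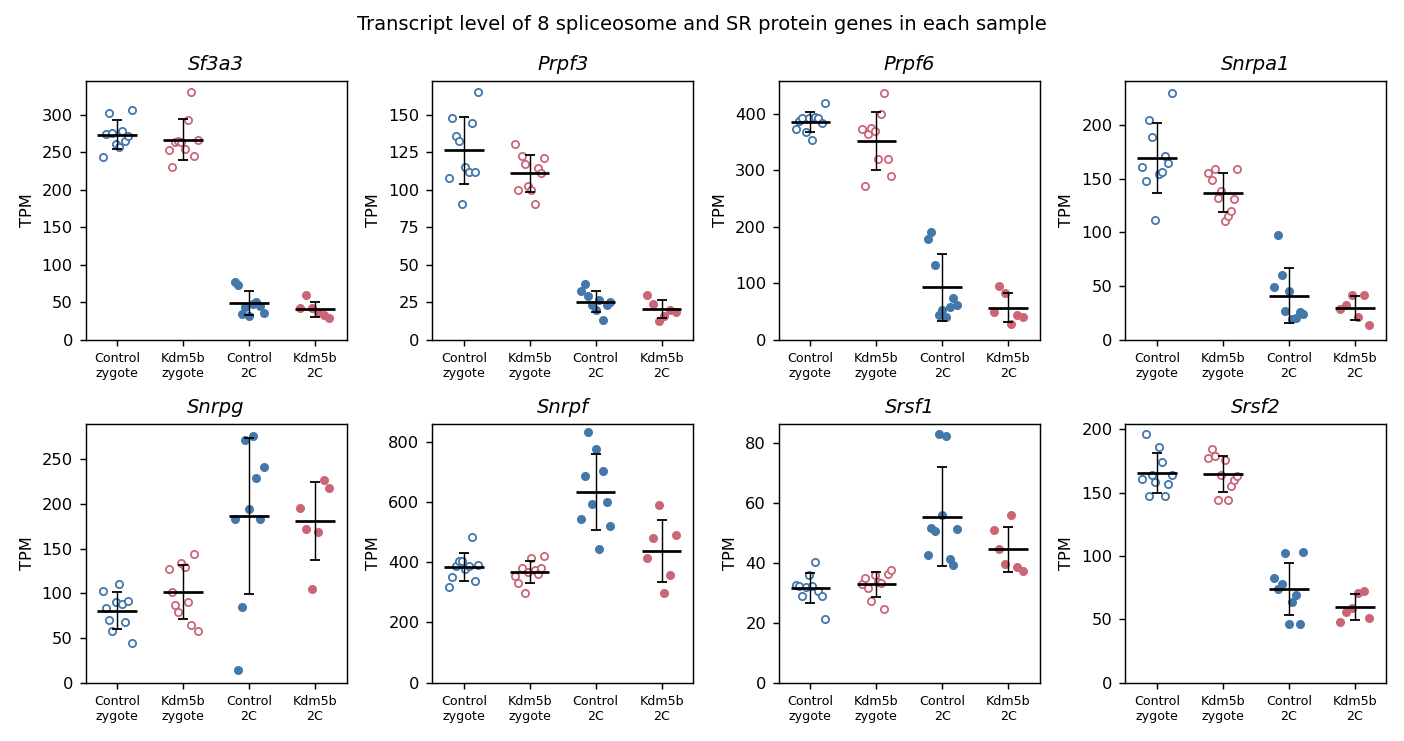
TPM of 8 genes (y axes, each starting at 0) in every sample of the 4 groups on the x axes, with open points for zygotes, filled points for 2C samples, lines for means and bars for the SD. Sf3a3, Prpf3, Prpf6, Snrpa1 and Srsf2 are lower in 2C samples of both injections, with no overlap between the stages, whereas Snrpg, Snrpf and Srsf1 have higher 2C means.

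Genes of the Sm ring moved in both directions. Snrpe, Snrpf and Snrpg, the ring proteins E, F and G, were higher in control 2C samples, whereas Snrpd1, for D1, was lower, and Snrpb, Snrpd2 and Snrpd3 were not called. Snrpf had 319 to 482 TPM (median 387) in control zygotes and 445 to 832 TPM (median 599.6) in control 2C samples. Only the lowest 2C sample lay within the zygote range, and the log2 fold change was 0.81 ± 0.11 (adjusted p = 7.62e-07). Snrpg, on chromosome 6 from 86371540 to 86378902, had 44.5 to 110.0 TPM (median 86.4) and 13.7 to 276 TPM (median 194), with a log2 fold change of 1.30 ± 0.31 (adjusted p = 0.00109). Its control 2C samples were uneven. Replicates 1, 2 and 3, from U81 to U88, had 183, 13.7 and 85.2 TPM, and the 6 samples of U89 to U96 had 184 to 276 TPM. With the 2C samples of U81 to U88 alone, the log2 fold change was 0.24 and not called (adjusted p = 0.691). Snrpd1 had 345 to 492 TPM (median 425) in control zygotes and 77.0 to 306 TPM (median 163) in control 2C samples, without overlap, and a log2 fold change of -1.16 ± 0.18 (adjusted p = 4.9e-06). Snrpc, the C protein of the U1 snRNP, was higher by 1.24 ± 0.29 (adjusted p = 0.000781), and the spread of its 2C samples, 41.1 to 323 TPM, took in the whole zygote range of 46.9 to 71.3 TPM. It was not called with the 2C samples of U81 to U88 alone, at 0.47 (adjusted p = 0.142).

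Of the 8 LSM genes, 3 were higher and 2 lower in control 2C samples. LSM proteins form a ring on U6 snRNA, with Lsm8, or a cytoplasmic ring for mRNA decay, with Lsm1. Lsm3, shared by both rings, was the most abundant and had 256 to 364 TPM (median 293) in control zygotes and 95.2 to 182 TPM (median 121) in control 2C samples, without overlap, and a log2 fold change of -1.04 ± 0.12 (adjusted p = 1.24e-07). Lsm6 was lower as well, at -0.57. Lsm1 had 8.40 to 17.3 TPM (median 11.4) in control zygotes and 14.3 to 35.1 TPM (median 21.2) in control 2C samples, and rose by 1.01 ± 0.20 (adjusted p = 0.000158; 0.50 and adjusted p = 0.134 with the 2C samples of U81 to U88 alone). Lsm2 and Lsm7 were higher, by 0.62 and 0.89, and Lsm4, Lsm5 and Lsm8, each at 0 counts in at least 1 sample, were not called.

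Of the 10 SR protein genes, 4 rose and 1 fell. Srsf1, the founding member of the family, had 21.3 to 40.4 TPM (median 32.2) in control zygotes and 39.4 to 83.2 TPM (median 51.3) in control 2C samples. Of its 9 2C samples, all but the lowest lay above every zygote, and the log2 fold change was 0.90 ± 0.14 (adjusted p = 5.31e-06). Srsf10, known for splicing repression when dephosphorylated, rose from a median of 59.6 to 72.9 TPM, by 0.52 ± 0.086 (adjusted p = 1.42e-05). Srsf11 and Srsf6 rose by 0.81 and 0.70, and Srsf6 was not called with the 2C samples of U81 to U88 alone, at 0.38 (adjusted p = 0.371). Srsf2, which binds exonic enhancers, was the gene that fell. It had 147 to 196 TPM (median 162) in control zygotes and 46.2 to 103 TPM (median 73.6) in control 2C samples, with no overlap, and its log2 fold change was -1.07 ± 0.14 (adjusted p = 3.52e-07). Srsf4, the most abundant SR gene at 246 TPM in control zygotes, was not called, with 257 TPM in control 2C samples and a log2 fold change of 0.057 ± 0.12.

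U2AF recognises the polypyrimidine tract and the AG at the end of the intron. Both of its main subunits were lower in control 2C samples, U2af1 at -0.77 ± 0.21 (adjusted p = 0.00284) and U2af2 at -0.70 on the log2 scale. U2af1l4, a relative of U2af1 and the most abundant of the 3, had 216 to 344 TPM (median 272) in control zygotes and 199.7 to 416 TPM (median 217) in control 2C samples and was not called (-0.14 ± 0.13, adjusted p = 0.388). The PPIL genes encode cyclophilins of the spliceosome, and 3 of 4 fell. Ppil4 had 169 to 202 TPM (median 189) in control zygotes and 41.3 to 144 TPM (median 58.9) in control 2C samples, without overlap, and a log2 fold change of -1.30 ± 0.18 (adjusted p = 8.38e-07), and Ppil2 and Ppil3 had log2 fold changes of -1.26 and -1.22. Of the genes added by name, Ccdc174, a partner of the exon junction complex, had 162 to 255 TPM (median 221) in control zygotes and 32.8 to 88.2 TPM (median 38.2) in control 2C samples. Cwf19l2, a factor of the late spliceosome, had 122 to 175 TPM (median 139.5) and 33.8 to 101 TPM (median 54.9). Neither gene overlapped between the stages. Their log2 fold changes were -1.99 ± 0.18 and -1.21 ± 0.16. Ddx5, an RNA helicase, and Safb, an RNA-binding scaffold protein, had medians of 277 and 121 TPM in control zygotes and of 277 and 105 TPM in control 2C samples, and were not called.

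**Figure D2:**
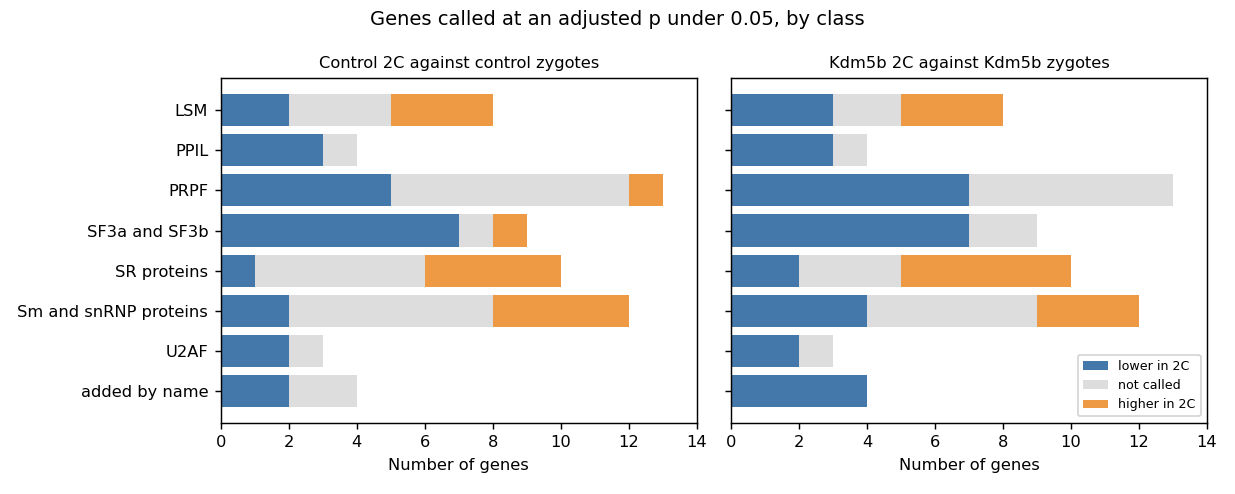
Number of genes (x axis) in each class (y axis) that were lower in 2C samples, higher, or not called at an adjusted p under 0.05, for control embryos on the left and Kdm5b embryos on the right. SF3a and SF3b had 7 of 9 genes lower in both panels, and SR proteins had 4 and 5 of 10 higher. Of all genes tested, 25.4% and 29.5% were lower, and 26.8% and 29.3% higher.

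The same contrast was measured in a separate set of samples, the 6 Kdm5b 2C samples against the 10 Kdm5b zygotes. There, 32 genes were lower and 11 higher, 50.8% and 17.5% of the group, against 29.5% and 29.3% of the 12390 genes tested. Among the 59 genes matched by symbol, 28 were lower and 11 higher, or 47.5% and 18.6%. This comparison holds the Kdm5b 2C values that the choice of the group may have drawn on, so its counts are a description. With the fold threshold, 20 were lower and 1 higher, 31.7% and 1.59%, against 16% and 10.5%. The median log2 fold change was -0.42 over the group and 0.0078 over all genes. In TPM, all Kdm5b 2C samples lay below all Kdm5b zygotes for 25 genes, 39.7% against 18.3% of the genes tested, and above them for 1 gene, 1.59% against 10.4%. Of the 63 genes, 24 were lower after both injections, 10 were higher after both, 17 were called after neither and 0 were called in opposite directions. These counts were not made over all genes, so nothing is read from them about this group. Across the 63 genes, which share libraries and their scaling, the fold changes of the 2 comparisons had r = 0.883, and across 11819 genes tested in both r was 0.897.

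Sf3a3 had 229.8 to 329.6 TPM (median 264) in Kdm5b zygotes and 29.1 to 58.8 TPM (median 39.4) in Kdm5b 2C samples, a log2 fold change of -2.62 ± 0.13 (adjusted p = 6.59e-14), and the stages again did not overlap. The log2 fold change of Prpf3 was -2.37 ± 0.14 and that of Prpf6 -2.54 ± 0.19. Snrpe, Snrpf and Snrpg were again higher, by 0.65, 0.35 and 0.94, as were Srsf1 by 0.54, Srsf10 by 0.48 and Lsm1 by 0.99. Srsf6 had the highest log2 fold change among the genes called. It stood at 3.52 to 7.76 TPM (median 5.92) in Kdm5b zygotes and 7.56 to 22.1 TPM (median 12.6) in Kdm5b 2C samples, and rose by 1.23 ± 0.22 (adjusted p = 4.62e-05). By class, 7 of 9 SF3 genes, 7 of 13 PRPF genes, 3 of 4 PPIL genes, 4 of 12 Sm and snRNP genes, 3 of 8 LSM genes, 2 of 3 U2AF genes and 2 of 10 SR genes were lower in Kdm5b 2C samples, and all 4 genes added by name. The share over all genes tested was 29.5%. A further 8 genes were called lower only in the Kdm5b samples, among them Snrpb2, Snrpd3, Srsf5, Ddx5 and Safb, 1 was called higher only there, Srsf4, and 3 were called higher only in the controls, Prpf19, Sf3b5 and Snrpc. Snrpd3, the ring protein D3, had a median of 433 TPM in Kdm5b zygotes and 203 TPM in Kdm5b 2C samples, and a log2 fold change of -0.88 ± 0.20 (adjusted p = 0.000603), against -0.42 ± 0.20 in controls (adjusted p = 0.0737). Srsf5, an SR protein, was at -0.28 ± 0.094 in Kdm5b samples and 0.31 ± 0.15 in controls. A call after 1 injection and not after the other is no test of a difference between them, which is the interaction described later.

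**Figure D3:**
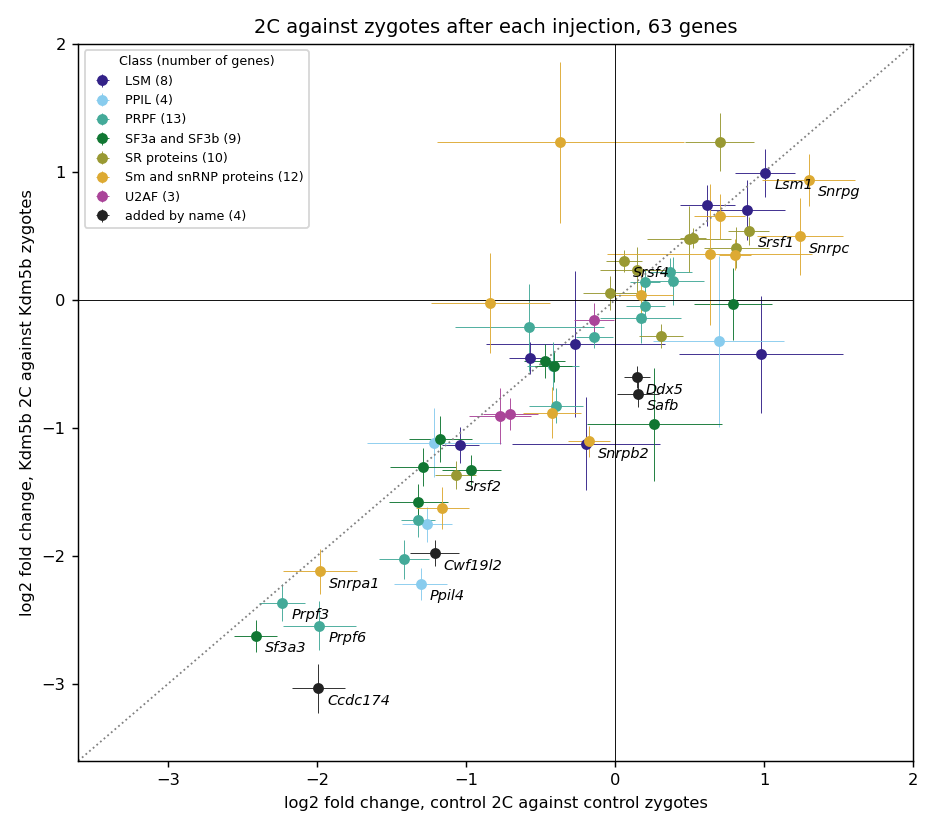
Log2 fold change of 2C samples against zygotes for the 63 genes, in water-injected controls (x axis) and in Kdm5b embryos (y axis), with bars of 1 SE, colours for the classes and a dotted line of equality. Of the 63 genes, 52 lie below the line, a count that was not made over all genes. In the interaction fit, 49 of the 63 and 7060 of all 13778 genes had a lower estimate in Kdm5b embryos. The choice of the group may have drawn on the Kdm5b 2C values, so these counts are a description. Snrpb2, Safb and Ddx5 lie at -0.17, 0.15 and 0.15 on the x axis and at -1.10, -0.73 and -0.60 on the y axis.

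The promoters of 3 genes on which the results turn are shown. Sf3a3 had the lowest and Snrpg the highest log2 fold change in the control stage comparison, and Snrpb2 is one of the genes whose values within U81 to U88 are given for every sample. Each is the RefSeq sequence of GRCm38.p6 from 250 bases before to 50 bases after the transcription start. Capitals mark matches on either strand to GGGCGG, the core of the GC box, to CCAAT, named for the box it forms, to CCGGAAG, the core of an ETS site, and to TATAAA, the core of the TATA box. No match overlaps another here.
Sf3a3 promoter, chr4:124714611-124714910, plus strand: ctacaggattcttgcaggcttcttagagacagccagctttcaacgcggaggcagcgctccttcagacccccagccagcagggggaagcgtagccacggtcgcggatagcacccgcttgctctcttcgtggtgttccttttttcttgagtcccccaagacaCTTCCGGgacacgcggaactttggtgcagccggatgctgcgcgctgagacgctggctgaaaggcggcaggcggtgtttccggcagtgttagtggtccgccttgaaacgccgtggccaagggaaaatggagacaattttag
Snrpg promoter, chr6:86371290-86371589, plus strand: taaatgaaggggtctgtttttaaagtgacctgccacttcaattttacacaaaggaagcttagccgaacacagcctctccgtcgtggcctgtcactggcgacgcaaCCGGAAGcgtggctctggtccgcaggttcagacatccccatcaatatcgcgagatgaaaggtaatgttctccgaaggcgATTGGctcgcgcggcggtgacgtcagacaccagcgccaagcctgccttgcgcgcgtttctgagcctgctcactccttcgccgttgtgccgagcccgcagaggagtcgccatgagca
Snrpb2 promoter, chr2:143062819-143063118, plus strand: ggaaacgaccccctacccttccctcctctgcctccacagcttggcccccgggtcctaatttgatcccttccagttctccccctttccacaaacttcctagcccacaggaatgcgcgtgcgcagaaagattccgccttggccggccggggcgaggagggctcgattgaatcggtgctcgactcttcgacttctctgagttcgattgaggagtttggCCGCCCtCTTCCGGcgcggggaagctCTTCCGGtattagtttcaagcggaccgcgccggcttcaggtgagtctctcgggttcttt
Of the 63 genes, 53 had an entry, with 69 promoters. CCGGAAG was found in 26 of the 69, or 37.7%, against 8.86% of all 32851 mouse promoters of this length, and GGGCGG in 40 of the 69, against 35.7% of all promoters. CCAAT was in 40.6% against 37.4% and TATAAA in 10.1% against 13.6%. All promoters include those of genes that are silent in embryos, and promoters of 1 gene can overlap. Among genes with an entry, CCGGAAG was present for 9 of 20 that were lower after both injections and for 3 of 9 that were higher after both. A match is a run of letters only, and binding was not measured.

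No gene of the group was called after Kdm5b injection in zygotes. Between Kdm5b and control zygotes, 0 of the 63 genes were called, against 16 of 11933 genes tested, or 0.134%, and DESeq2 called 0 as well. At an unadjusted p under 0.05 there were 12, all lower, against 668 lower and 566 higher among the 11933. The median log2 fold change was -0.019 over the group and 0.0097 over all genes. Sf3b2 had the smallest p, with 261 to 338 TPM (median 294) in Kdm5b zygotes against 295 to 409 TPM (median 328) in controls, and a log2 fold change of -0.20 ± 0.064 (adjusted p = 0.241). Prpf6 had 272 to 437 TPM (median 366) against 353 to 419 TPM (median 389), with overlap, and -0.12 ± 0.061 (adjusted p = 0.486). Among genes with a higher estimate, Snrpg had the smallest p, at 0.35 ± 0.17 (adjusted p = 0.487).

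In 2C embryos, 49 of the 63 estimates were lower after Kdm5b injection, against 6159 of the 12244 genes tested. The median log2 fold change was -0.26, against -0.0028 over all genes. None of the 63 was called by edgeR, against 3 of 12244 genes tested, or 0.0245%, although 13 had an unadjusted p under 0.05, all lower, against 601 lower and 551 higher among the 12244. DESeq2 called 6 of the 63 lower, against 84 lower and 17 higher of 19501 genes. In TPM, the groups overlapped for all 63 genes, a count that was not made over all genes. Of the genes matched by symbol, Snrpb2, the U2-specific protein B'', had 80.6 to 162 TPM (median 104) in Kdm5b 2C samples and 118 to 349.6 TPM (median 191) in controls, and a log2 fold change of -0.89 ± 0.21. Ppil4 had 28.3 to 52.4 TPM (median 34.8) and 41.3 to 144 TPM (median 58.9), and -0.90 ± 0.25. The genes added by name also had lower estimates, Ccdc174 of -1.19 ± 0.29, Safb of -0.88 ± 0.19, Cwf19l2 of -0.85 ± 0.21 and Ddx5 of -0.66 ± 0.13. Srsf6, with 7.56 to 22.1 TPM (median 12.6) against 3.99 to 12.6 TPM (median 10.8), had an estimate of 0.61 ± 0.30.

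Within libraries U81 to U88, with 5 Kdm5b and 3 control 2C samples, 9 genes were called lower, 14.3% of the group against 0.813% of the 12426 genes tested, and 8 of them also passed the fold threshold, against 0.531%. These were the 4 genes added by name and 5 of the 59 matched by symbol, Ppil4, Prpf6, Prpf31, Sf3b2 and Snrpb2. Nothing is read from this count, since the rule that formed the group points to these libraries. Snrpb2, on chromosome 2 from 143063069 to 143072052, had 259, 349.6 and 284 TPM in the control samples and 80.6, 162, 134, 96.0 and 98.0 TPM in the Kdm5b samples. All 5 lay below the 3 controls, and the log2 fold change was -1.32 ± 0.24. Prpf6 had 178, 190.1 and 133 TPM against 49.2, 94.6, 81.8, 28.3 and 40.5 TPM, again without overlap, and -1.45 ± 0.30. The log2 fold changes of Ppil4, Prpf31 and Sf3b2 were -1.50, -1.26 and -1.12, and those of Ccdc174, Cwf19l2, Safb and Ddx5 were -1.65, -1.37, -1.12 and -0.80. In TPM, all 5 Kdm5b samples lay below all 3 controls for 20 of the 63 genes, 31.7% against 6.15% of all genes tested.

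The 3 control samples of U81 to U88 stood apart from the other controls in several of these genes. All 3 were single embryos, whereas control replicates 7, 8 and 9, of U89 to U96, were blastomere pools, so library index is mixed with pooling here. Replicates 2 and 3 also had the fewest genes with at least 10 counts, 10834 and 10958, against 11513 to 12460 in the other control 2C samples. For 13 of the 63, including Ppil4, Prpf6, Prpf31, Snrpb2, Ccdc174 and Cwf19l2, all 3 lay above all 6 controls of U89 to U96, 20.6% against 5.09% of the 12244 genes, and for 1 gene they lay below, against 3.03%. Prpf6 had a median of 55.7 TPM in the controls of U89 to U96, and of the 5 Kdm5b samples of U81 to U88, 2 lay inside the range of these controls, 2 above it and 1 below it. Prpf6 and Sf3b2 were close, with Kdm5b medians in U81 to U88 of 49.2 TPM and of 97.0 against 105 TPM. Snrpb2 had 98.0 against 175 TPM, Safb 63.6 against 103 TPM and Ccdc174 24.7 against 37.5 TPM. For each of the 9 called genes the Kdm5b median was the lower one. For 0 of the 63 genes did these 5 Kdm5b samples lie wholly below the 6 other controls. The share over all genes was not counted, so nothing is read from this 0. Against those 6 controls alone, 0 of the 63 genes were called, against 2 of 11845, and 10 were lower and 1 higher at an unadjusted p under 0.05, against 508 and 500 of all genes. In this fit, the median log2 fold change of the 63 was -0.084. Leaving out control replicate 2 or 3, or Kdm5b replicate 1, 4 or 6, within U81 to U88 brought the 9 calls to 0. The strip U89 to U96 held 1 Kdm5b sample, so the injection could not be compared within it.

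**Figure D4:**
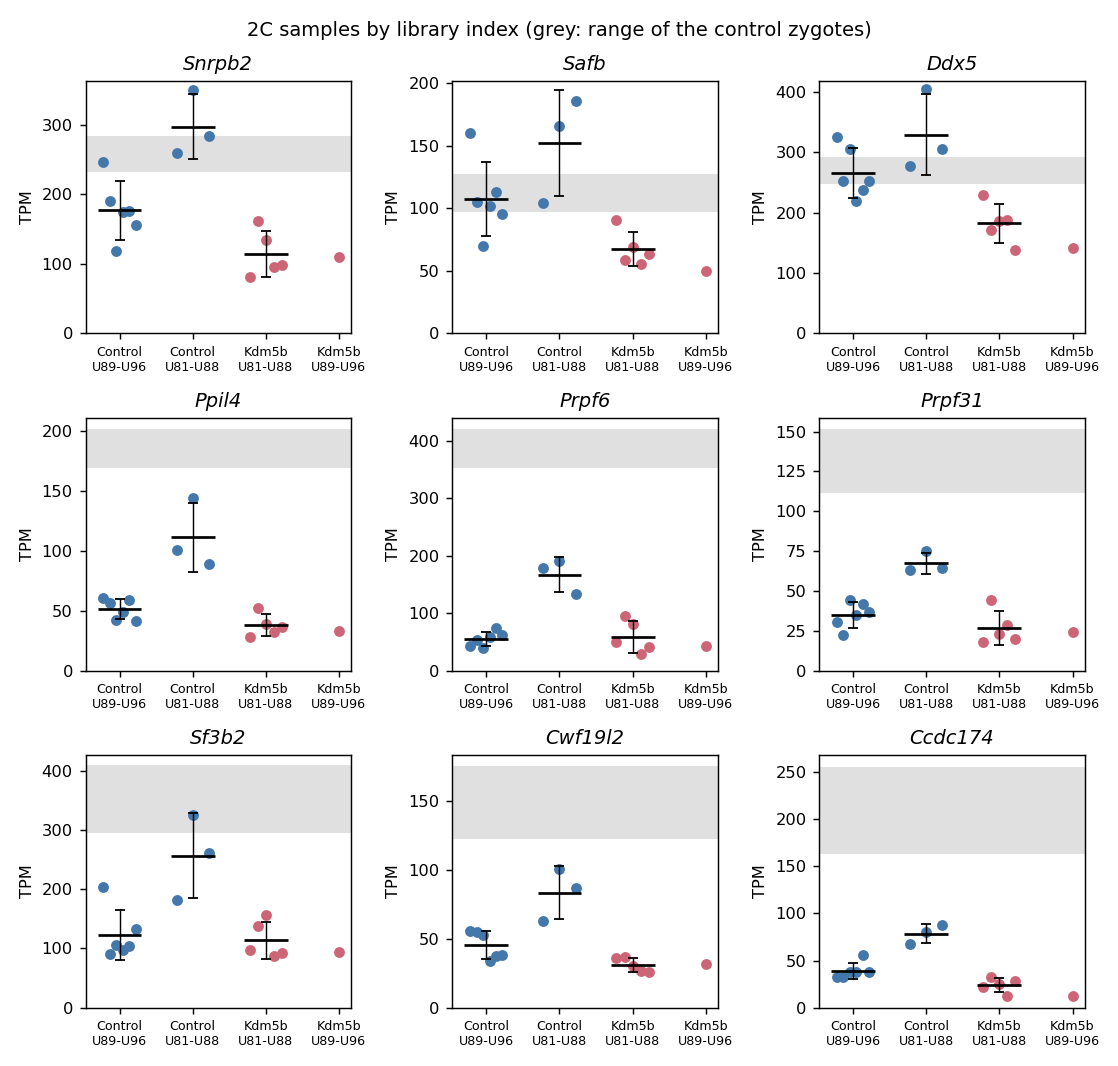
TPM (y axes, from 0) of the 9 genes called lower within libraries U81 to U88, in 2C samples split on the x axes by injection and library index, with means and SD for groups of more than 1 sample and the control zygote range in grey. The 3 control samples of U81 to U88 sit above the 5 Kdm5b samples in each panel, and for Ppil4, Prpf6, Prpf31, Snrpb2, Ccdc174 and Cwf19l2 they sit above the 6 other controls too.

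Whether the stage difference depended on the injection was tested over all 35 samples as an interaction. It was called for 3 of the 63 genes, all lower in Kdm5b embryos, against 0.102% of the 13778 genes tested: Snrpb2 and, of the genes added by name, Ddx5 and Safb. Snrpb2 had 232 to 284 TPM (median 266) in control zygotes, 118 to 349.6 TPM (median 191) in control 2C samples, 236 to 294 TPM (median 264) in Kdm5b zygotes and 80.6 to 162 TPM (median 104) in Kdm5b 2C samples. Its Kdm5b 2C samples lay below every zygote, and its stage difference minus that in controls was -0.92 ± 0.20 on the log2 scale. Safb had 69.7 to 186 TPM (median 105) in control and 49.8 to 90.4 TPM in Kdm5b 2C samples, and Ddx5 had 219 to 405 TPM (median 277) and 139 to 229 TPM (median 179), with interactions of -0.87 ± 0.19 and -0.73 ± 0.12. Without the 3 control samples of U81 to U88, the interaction was -0.65 for Snrpb2 and -0.71 for Safb, neither called, and 1 of the 63 genes was called. In the 15 fits that left out 1 of the 2C samples, the call was kept in 7 for Snrpb2, in 9 for Safb and in 15 for Ddx5. These estimates hold the 2C difference on which the rule may have drawn, so they are a description.

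The RNA partners of these proteins were present in the table of repeats, which counts reads on all copies of the U1, U2, U4, U5 and U6 snRNA sequences, gene copies and pseudogenes alike. As CPM, which scales the repeat counts of each sample to one fixed total, U1 had 238 to 429 CPM (median 273) in control zygotes and 272 to 439.6 CPM (median 359) in control 2C samples, and U2 had 252 to 449 CPM (median 309) and 314 to 511 CPM (median 403). The stages overlapped for both. In the edgeR fit with TMM scaling, U1 was higher in control 2C samples by 0.73 ± 0.13 (adjusted p = 0.000149) and U2 by 0.72 ± 0.13 (adjusted p = 0.000142), and U4, U5 and U6 were not called, at 0.63 ± 0.27, 0.48 ± 0.19 and 0.44 ± 0.17. Of the 2635 repeats tested, 12.6% were higher and 12.9% lower. Among Kdm5b samples all 5 were called higher with TMM scaling, from 0.32 ± 0.13 for U6 to 0.80 ± 0.16 for U2, against 20.1% of 2740 repeats that were higher and 20.9% lower, but only U1 and U2 were called with total repeat counts, at 0.40 and 0.47. In controls, total repeat counts without TMM, an alternative chosen after seeing the data, moved the median of all repeats from 0.056 to -0.42 and put U1 at 0.24 (adjusted p = 0.116), U2 at 0.25 (adjusted p = 0.112), U5 at -0.0050 and U6 at -0.035, so the direction of U5 and U6 turned with the scaling. None of the 5 was called after injection within either stage.

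**Figure D5:**
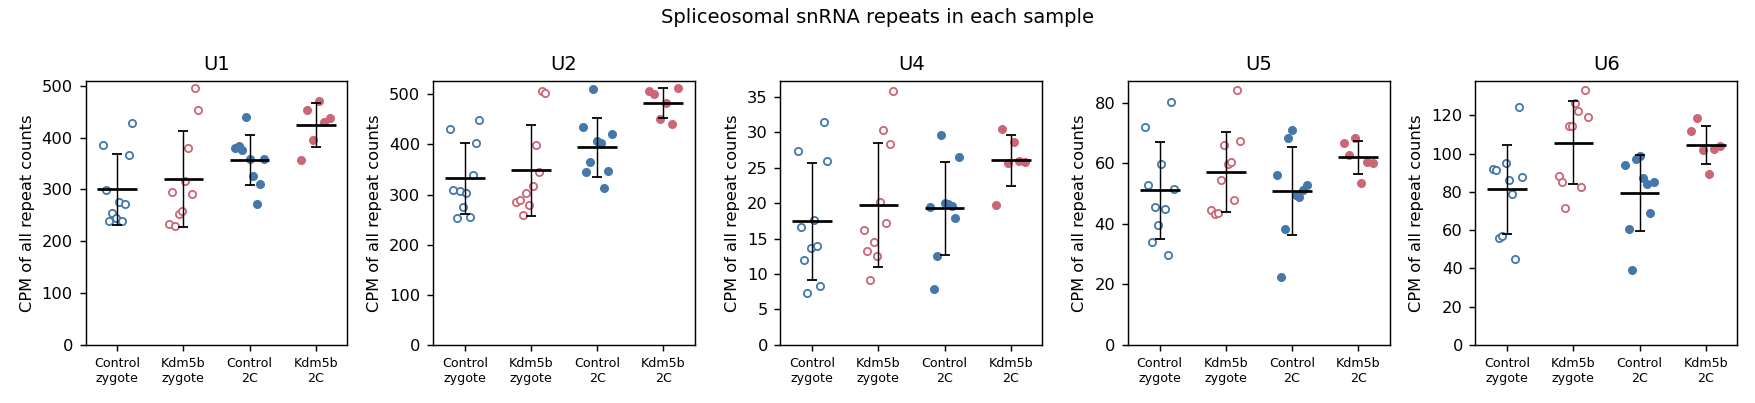
Reads on the U1, U2, U4, U5 and U6 snRNA repeats, as CPM of all repeat counts (y axes, from 0), in every sample of the 4 groups, with means as lines and SD as bars. The ranges of zygotes and 2C samples overlap in all 5 panels, and Kdm5b 2C samples have the highest means for U1, U2, U4 and U5.

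Other parts of the splicing apparatus, from lists chosen with earlier results of these data known, were counted in the same fits. Their counts are to be read against the 25.4% of all genes that were lower and the 26.8% that were higher in controls. In Kdm5b samples these shares were 29.5% and 29.3%. Of 60 other spliceosome subunits, 35 were lower and 10 higher in control 2C samples, where their median log2 fold change was -0.67, and 41 and 10 in Kdm5b samples. Plrg1, a partner of Prpf19, was at -1.99 in the controls, with medians of 257 TPM in zygotes and 58.5 TPM in 2C samples, and Ppih, a cyclophilin of the tri-snRNP, was at 1.08. The minor spliceosome removes a rare class of introns. Of its 11 genes tested, 8 were lower and 2 higher in controls, with a median of -0.89. Zcrb1, a protein of the U11/U12 snRNP, went from a median of 634 to 67.2 TPM, with a log2 fold change of -2.99. Zrsr1, a relative of U2af1, was higher at 1.69, but at low medians of 2.23 and 5.82 TPM. In Kdm5b samples, 8 of 12 minor spliceosome genes tested were lower and 0 higher, and Zrsr1 was not called, at 0.305.

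Of 22 snRNP assembly genes, 8 were lower and 7 higher in controls, with a median of -0.20, among them Snupn, which imports snRNPs into the nucleus, at -2.53 and Strap, a partner of the SMN complex, at 0.68. Of 8 exon junction complex genes, 3 were lower and 1 higher, with Sap18 at -0.99 and Rnps1 at 0.44. Of 7 SR protein kinases tested, 2 were lower and 2 higher, and the called genes included Clk1 at -2.68 and Srpk2 at 0.38, both of which phosphorylate SR proteins. The 43 other splicing regulators and hnRNP proteins tested had more genes higher than lower, 18 against 8, with a median of 0.23. Of these, Qk, an RNA-binding regulator, was at 0.93 and Celf1 at -0.78. In Kdm5b samples, 17 of this list were higher and 10 lower of 44 tested, against 29.3% and 29.5% of all genes. Between Kdm5b and control 2C samples, 0 of the 60 other spliceosome subunits were called by edgeR, and 10 were lower and 0 higher at an unadjusted p under 0.05, against 601 and 551 of all 12244 genes tested.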

How the data were processed

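Total RNA of 35 samples of mouse zygotes and 2C embryos had been made into libraries with a stranded, randomly primed kit. The authors trimmed reads with fastp 0.21.0, aligned them with STAR 2.7.3a to GRCm38 and counted fragments per RefSeq gene with featureCounts 1.5.1 by strand. The deposited gene table holds these counts, without normalization. The deposited repeat table holds estimated counts per repeat from SalmonTE, of which 5.04% were not whole, and these were rounded. Each column was matched to a sample by its name, and 0 columns were of unknown sample. The Kdm5b row, which counts the injected mRNA, was left out of all tests.

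The members and gene lists were chosen with earlier results of these data known. Genes were kept by filterByExpr (minimum count 10), scaled by TMM and tested in edgeR 4.0.16 (R 4.3.3) with quasi-likelihood tests on the samples of the groups compared, or on all 35 for the interaction. P-values were adjusted by Benjamini-Hochberg over all genes tested, called at 0.05, and also counted with an absolute log2 fold change over 1. The SE was taken from the fold change and its F statistic. TPM was computed here from counts and exon lengths, over all genes but Kdm5b. Repeats were fitted in the same way. The deposited counts ranged from 8705584 to 17797581 per sample. Each test weighs a difference against the spread between samples, which were single embryos or blastomere pools. The labels do not give the females or collections behind each sample, so the spread between those was not measured.

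Members named were the 4 added by name; in each class the most abundant in control zygotes and the one with the largest called change each way between control stages; the 5 of smallest p each way in that comparison; the one of smallest p each way in each injection comparison and the interaction; those beside the count limit; and Snrpb and Snrpn. From each splicing list, the called gene of smallest p each way was named. Other members were named after their values were seen. Alternatives were DESeq2 1.42.0, other scalings and filters, other sample sets, index strip as a covariate, a replicate block, and each sample left out in turn. The script steps were tested on simulated data. Replicate numbers did not pair the samples, since the deviations of same-numbered samples from their group means correlated between -0.26 and 0.11.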

Additional observations from a re-analysis of the deposited data

Results flagged for a closer look

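In 112 combinations of a named gene and a group of 6 to 10 samples, 4 had a sample far from the others, and chance flags about 1 in 20 groups. Sf3b5 stood at 47.3 TPM in control zygote replicate 3, against 21.3 to 34.0 TPM in the other control zygotes, and at 108 TPM in control 2C replicate 5, against 19.8 to 52.6 TPM in the other control 2C samples. U2af1l4 stood at 416 TPM in control 2C replicate 3, against 199.7 to 259.7 TPM in the others. Snrpf stood at 482 TPM in control zygote replicate 8, against 319 to 406 TPM in the others.

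edgeR's interaction test of the stage difference between injections called 3 genes, with a difference on the log2 scale of -0.92 for Snrpb2, -0.73 for Ddx5 and -0.87 for Safb, each lower in Kdm5b embryos. Ddx5 and Safb had been added to the group by name, with results of these data known. All 3 estimates hold the 2C values that the choice of the group may have drawn on, so they are a description. When 1 of the 2C samples was left out, the call was kept in 7 of 15 fits for Snrpb2, 9 for Safb and 15 for Ddx5. Without the control 2C samples of U81 to U88, Snrpb2 and Safb were not called, at -0.65 and -0.71, and Ddx5 was, at -0.65.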

How the results depend on the processing

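Between control stages, 24 genes were lower, with 23 to 27 when 1 sample was left out, and 13 higher, with 12 to 14. With the fold threshold as well, 17 were lower (16 to 19 without 1 sample, and 9 with the 2C libraries U81 to U88 alone) and 3 higher (2 to 4 without 1 sample, and 6 with single intact embryos). Between Kdm5b stages, 32 were lower (31 to 33), 11 higher (10 to 12), and with the fold threshold 20 (19 to 21) and 1 (1 to 3), the last being 2 with DESeq2, with its size factors in edgeR, with a mean of at least 50 counts and with single intact embryos. No member was called after injection in zygotes under any alternative run. In 2C embryos, the 0 calls became 6 with DESeq2, 10 with all 35 samples in one fit (331 lower and 197 higher of 13778 genes), 10 with index strip as a covariate (185 and 68 of 12244 genes), and 1 with a mean of at least 50 counts, with no filter or with total counts, and stayed between 0 and 1 without 1 sample. Within U81 to U88, the 9 lower genes became 15 with DESeq2 (346 lower and 187 higher of 18431 genes), 15 without a filter and 0 to 11 without 1 sample, with 0 without control replicate 2 or 3 or Kdm5b replicate 1, 4 or 6. The 3 interaction calls became 6 with DESeq2, 7 with single intact embryos, 5 with total counts and 1 to 5 without 1 of the 2C samples. In alternatives chosen after seeing the data they became 19 with the 2C libraries U81 to U88 alone (4.62% of all genes lower), 9 with index strip as a covariate (2.01%) and 1 without the control 2C samples of U81 to U88 (0.11%). With the replicate number as a block, higher genes at both thresholds between control stages went from 3 to 1, calls after injection in 2C embryos from 0 to 2, those within U81 to U88 from 9 to 0, and U6 snRNA to 0.48 and called (adjusted p = 0.025), while other block counts stayed within 1.5 times. The interaction had no block fit. For snRNA repeats between control stages, gene library sizes put U4, U5 and U6 at 0.96, 0.79 and 0.75, all called, and total repeat counts put U1 and U2 at 0.24 and 0.25, not called. DESeq2 moved the median of all genes to 0.12 and 0.15 in the control and Kdm5b stage comparisons, from 0.022 and 0.0078. The cause of these changes was not tested. Genes such as Snrpb and Snrpn, with low counts in every sample, are limited by depth.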
